A study of Rattus norvegicus with 44 samples.

Results

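The proteasome genes of a rat hepatoma cell line were followed through exposure to nickel, chromium and cadmium. Members were the probe sets of a whole-genome oligonucleotide array whose annotation named a single gene with a symbol starting with Psma, Psmb, Psmc, Psmd, Psme, Psmf or Psmg. The rule gave 60 probe sets for 46 genes, out of 31042 probe sets and 14218 genes. Of the 46 genes, 44 encode subunits, activators, an inhibitor or assembly chaperones of the proteasome. The other 2, Psmc3ip (a partner protein in meiotic recombination) and Psme3ip1, matched by symbol only and stayed out of the counts below. H4-II-E-C3 cells, a line derived from a rat hepatoma, were exposed for 24 hours to NiCl2 (40 µM, 140 µM or 400 µM), to Na2Cr2O7 (0.275 µM, 1 µM or 10 µM) or to CdCl2 (0.2 µM, 0.55 µM or 1.2 µM), and were set against control cells. For each metal, the study had chosen the concentrations from viability assays at a common set of cell death levels. The 44 arrays comprised 36 from exposed cells, with 4 replicates of each of 9 exposures, and 8 control arrays, a pair for each replicate. The labels call the replicates biological. They do not say whether the 2 control arrays of a replicate came from separate cultures, and the pair was averaged into 1 value.

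The condition of an array depends on how titles are matched to the columns of the deposited table. The displaced order takes the titles in series order and moves the 4 titles of repeated microarrays to the end. In it, exposure means minus control means matched 8928 log2 ratios to control listed with the study, within 7.5e-06. With titles as deposited, the median difference from those ratios was 0.164 and the largest 4.32. Over probe sets outside the proteasome, 9 of 9 arrays of replicates 2 to 4 at the highest concentrations were closest to the replicate 1 array of their own metal in the displaced order, against 4 of 9 with titles as deposited. The displaced order was used throughout. It assigned 22 of the 44 arrays to another condition than their own title, while nickel, chromium and control arrays of replicates 1 and 2 had the same condition in both. With titles as deposited, none of the 44 genes was called by limma at the highest concentration of any metal. At an unadjusted limma p under 0.05 there were 2 genes in cadmium, 10 in chromium and 6 in nickel. Every result below therefore rests on the displaced order, except where replicates 1 and 2 alone are given for nickel and chromium. The share of all tested probe sets called with titles as deposited was not counted.

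Array medians lay between 5.93 and 6.0 log2 units. Liver genes were high on average over the arrays, with Alb (albumin) at 14.5, Ttr (transthyretin) at 11.6 and Hnf4a (a hepatocyte transcription factor) at 10.5 log2 units. Apoa1 (the main protein of high-density lipoprotein) was the exception, at the 43.1st percentile of probe sets. Every measured marker of leukocytes, fibroblasts, endothelium and bile duct cells was below the median probe set. In bulk RNA, fewer cells of a kind and less RNA per cell cannot be told apart.

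The 26S proteasome degrades proteins that carry ubiquitin chains. Its barrel, the 20S core, is built of outer rings of alpha subunits (Psma genes), which gate the entrance, and inner rings of beta subunits (Psmb genes), of which Psmb5, Psmb6 and Psmb7 carry the proteolytic sites. The 19S regulatory particle caps the barrel: a base of ATPases (Psmc genes) and scaffold subunits unfolds the substrate, and a lid (most Psmd genes) removes its ubiquitin. Interferon-γ replaces the catalytic subunits with Psmb8, Psmb9 and Psmb10, which form the immunoproteasome, and induces PA28 (Psme1 and Psme2), an activator linked to the production of peptides for MHC class I. Dedicated chaperones (Psmg genes, Psmd5, Psmd9 and Psmd10) assemble core and base but are not part of the finished particle. When proteasome activity falls, mammalian cells raise the transcription of standard subunit genes through the transcription factor NRF1 (Nfe2l1).

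At the highest concentrations, the 3 metals gave different patterns over the particles. A gene was called higher or lower when its adjusted p was under 0.05 in limma, with each metal fitted on its own with the replicate number as a block and Benjamini-Hochberg adjustment over 15521 probe sets. Chromium at 10 µM raised 27 of 44 proteasome genes and lowered none, where 23% of all tested probe sets were called higher and 19.5% lower. Cadmium at 1.2 µM raised 30 and lowered none, against backgrounds of 23.8% higher and 14% lower. Nickel at 400 µM raised 8 and lowered 7, against 23.4% higher and 16.7% lower, so its counts lie near those shares. The median log2 change over the 44 genes was 0.26 in chromium, 0.26 in cadmium and -0.02 in nickel, where the medians over all tested probe sets were 0.01, 0.03 and 0.02. Most changes were small, and the called increases did not exceed 0.62 log2 units.

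**Figure D1:**
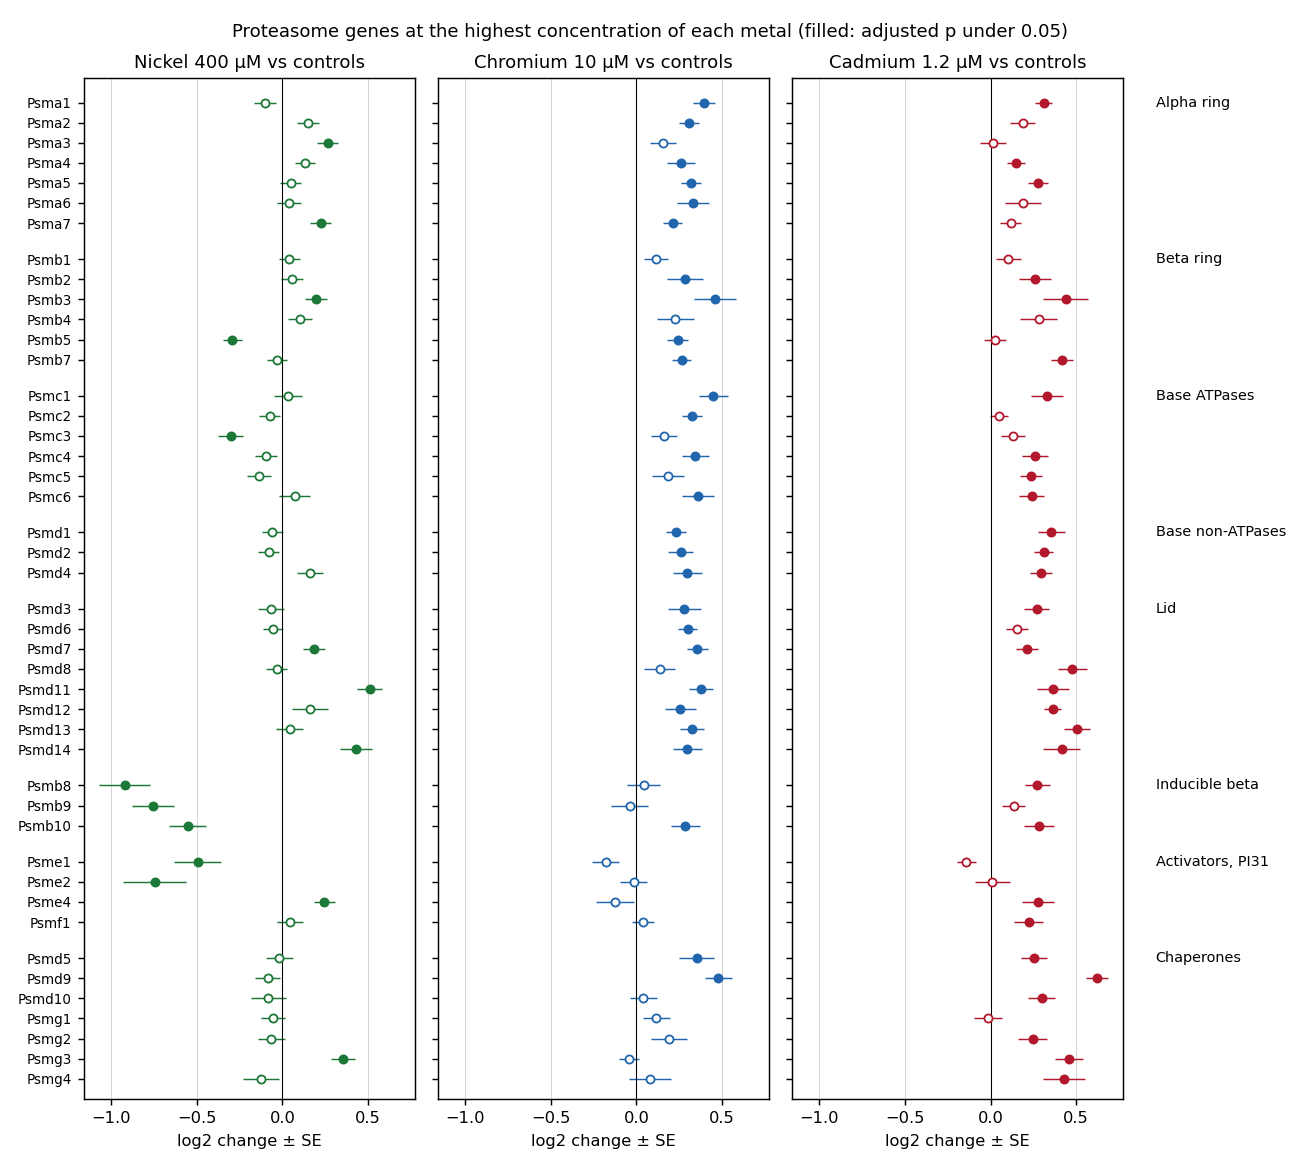
Log2 change against controls (x axis, ± standard error of the fit) of the 44 proteasome genes (y axis, grouped by particle) at nickel 400 µM, chromium 10 µM and cadmium 1.2 µM. Filled points passed an adjusted p under 0.05: the standard subunits lie right of 0 in chromium and cadmium, and Psmb8, Psmb9, Psmb10, Psme1 and Psme2 lie left of 0 in nickel, down to -0.92.

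The 30 standard subunits of the 26S particle with a Psm symbol lay above 0 without exception in chromium and in cadmium. Of 3 listed proteasome subunits and assembly factors with other names, 1 lay above 0 in chromium and 2 in cadmium. Their changes ran from -0.15 to 0.11 in chromium and from -0.13 to 0.23 in cadmium. In chromium 24 of 30 were called higher, 10 of 13 in the 20S rings and 14 of 17 in the 19S particle. In cadmium 20 of 30 were called higher, 6 of 13 in the 20S rings and 14 of 17 in the 19S particle. Both counts were lowest without replicate 3. Without it, chromium raised 12 and cadmium 9 of the 30, and over all 44 genes the counts were 13 and 11. The share of all tested probe sets called in fits that left out a replicate or used other settings was not counted, here or below. Without replicate 4, cadmium raised 13 of the 30 and 15 of the 44. Of the called genes, 13 of 27 in chromium and 11 of 30 in cadmium kept their call with any 1 replicate left out. For chromium, these included Psma1, Psma5, Psmb7, Psmc1, Psmd11, Psmd13 and Psmd9, and for cadmium Psma1, Psma5, Psmb7, Psmd1, Psmd2, Psmd13, Psmd9 and Psmg3. The median difference from controls over the 30 genes was 0.22, 0.27, 0.38 and 0.25 in replicates 1 to 4 of chromium, and 0.19, 0.21, 0.35 and 0.26 in replicates 1 to 4 of cadmium. All 8 values were above 0, and replicate 3 was highest for each metal.

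In the alpha ring, Psma1 changed most in both metals. Its log2 values were 10.92, 11.15, 11.51 and 11.47 in chromium and 10.96, 11.14, 11.30 and 11.31 in cadmium, against 10.63, 10.76, 11.03 and 11.05 in controls. Each exposed array stood above the controls of its own replicate, although the groups overlapped, with replicates 1 and 2 low in all 3 of them. The log2 change was 0.39 ± 0.06 (SE, n = 4) in chromium (adjusted p = 0.000273 in limma) and 0.31 ± 0.05 in cadmium (adjusted p = 0.000371). Psma6 averaged 11.88 ± 0.10 in chromium and 11.54 ± 0.04 in controls (SD, n = 4 each) and rose by 0.33, an increase whose call was lost without replicate 2 or without replicate 3. Psma3 was the one alpha gene that rose in nickel (0.27) and in neither of the other metals, with changes of 0.15 in chromium and 0.02 in cadmium that were not called.

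In the beta ring, Psmb7 (the trypsin-like site) and Psmb5 (the chymotrypsin-like site) parted. Psmb7 had log2 values of 11.31, 11.20, 11.44 and 11.49 in cadmium and 11.21, 11.11, 11.28 and 11.23 in chromium, against 10.99, 10.87, 10.94 and 10.96 in controls, with no overlap for either metal. The change was 0.42 ± 0.06 in cadmium (limma adjusted p = 0.000235, 1.34-fold) and 0.26 ± 0.05 in chromium (adjusted p = 0.00139, 1.2-fold). Psmb5 had values of 11.63, 11.53, 11.58 and 11.61 in cadmium, within the span of its controls at 11.66, 11.57, 11.51 and 11.51. In chromium its values of 11.85, 11.73, 11.87 and 11.75 were all above the controls, a change of 0.24 ± 0.06 (limma adjusted p = 0.00698, but 0.0721 without replicate 3). In nickel the same probe set gave 11.26, 11.28, 11.23 and 11.30, all below the controls, a fall of 0.29 on the log2 scale (limma adjusted p = 0.00107). Psmb6, the third catalytic subunit, is measured here only by a probe set shared with Psmb6l1 and was left out. Psmb3, a structural beta subunit, rose by 0.46 ± 0.12 in chromium and 0.44 ± 0.13 in cadmium. Its chromium call was lost without replicate 3 and its cadmium call without replicate 1, 3 or 4.

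In the base, Psmc1 was 9.38, 9.45, 9.38 and 9.29 in chromium and 9.18, 9.13, 9.39 and 9.31 in cadmium, against 8.99, 8.87, 8.81 and 9.03 in controls. Neither exposed group overlapped the controls. The change was 0.45 ± 0.08 in chromium (limma adjusted p = 0.000714) and 0.33 ± 0.09 in cadmium (adjusted p = 0.0122, or 0.142 without replicate 3). Of the 6 base ATPases, which thread the unfolded substrate into the core, 4 rose in chromium and 4 in cadmium, among them Psmc1, Psmc4 and Psmc6 in each. Psmc6 rose by 0.36 in chromium and 0.24 in cadmium, but no other Psmc6 probe set that passed the filter was called in either. The scaffold subunits Psmd1 and Psmd2 and the ubiquitin receptor Psmd4 rose in both metals, 3 of 3 each time, although Psmd4 in chromium kept its call in 1 of 4 fits that left out a replicate. Psmd1 averaged 10.15 ± 0.05 in cadmium and 9.80 ± 0.05 in controls, and Psmd2 10.86 ± 0.11 in cadmium and 10.55 ± 0.08 in controls (SD, n = 4 each).

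In the lid, 7 of 8 genes were called higher in chromium and 7 of 8 in cadmium. Psmd13, a structural lid subunit, had log2 values of 9.77, 9.68, 9.77 and 9.80 in cadmium and 9.53, 9.62, 9.60 and 9.54 in chromium, against 9.30, 9.18, 9.19 and 9.33 in controls. All 8 exposed arrays exceeded all controls, by 0.51 ± 0.08 in cadmium (limma adjusted p = 0.000222) and 0.32 ± 0.07 in chromium (adjusted p = 0.00232). Psmd11, a lid subunit that promotes proteasome assembly in human embryonic stem cells, rose in all 3 metals: it averaged 10.28 ± 0.22 in nickel, 10.15 ± 0.02 in chromium and 10.14 ± 0.10 in cadmium, against 9.77 ± 0.11 in controls (SD, n = 4 each). The changes were 0.51, 0.38 and 0.36. In cadmium the call was lost without replicate 3, and a second Psmd11 probe set that passed the filter changed by 0.49 in nickel, 0.36 in chromium and 0.02 in cadmium. Psmd14, the deubiquitinase of the lid, also rose in each metal, by 0.43, 0.30 and 0.42, and its 2 other probe sets were called higher in all 3 metals. Its chromium call held in 2 of 4 fits that left out a replicate.

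Nickel left most standard subunits near the controls and lowered the inducible ones. All 3 immunoproteasome subunits were called lower at 400 µM. Psmb8 had log2 values of 7.17, 7.20, 7.53 and 7.93 in nickel, against 8.60, 8.47, 8.24 and 8.20 in controls. The groups did not overlap, and the change was -0.92 ± 0.15 (limma adjusted p = 0.000369, to 0.528 of the control level). Psmb9 had 7.34, 7.77, 8.04 and 8.28 in nickel and 8.63, 8.58, 8.67 and 8.56 in controls, a change of -0.76 ± 0.12 (limma adjusted p = 0.000393). Psmb10 had 6.25, 6.43, 6.71 and 7.10 in nickel and 7.21, 7.05, 7.20 and 7.24 in controls, a change of -0.55 ± 0.11 (limma adjusted p = 0.00145), with replicate 4 inside the span of the controls. Each gene was lower than its own control in 4 of 4 replicates, but replicate 1 moved most and replicate 4 least. The median difference over the 3 genes was -1.29, -0.81, -0.64 and -0.27 in replicates 1 to 4. All 3 calls held with any 1 replicate left out and in replicates 1 and 2 alone. Psmb8 in nickel was the only one of the 44 genes to pass the stricter threshold of the study's methods (F-test FDR of at most 0.001 and at least 1.8-fold), which 1.95% of tested probe sets passed in nickel, 2.64% in chromium and 1.5% in cadmium.

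PA28 fell with them, less evenly. Psme2 had log2 values of 8.86, 9.14, 9.44 and 9.96 in nickel, against 10.35, 10.21, 9.85 and 9.96 in controls. Psme1 had 10.14, 10.48, 10.94 and 11.15 in nickel, against 11.20, 11.24, 11.12 and 11.14 in controls. Replicates 1 and 2 were far below their controls, and replicate 4, whose nickel array is titled as repeated, was level with them. The changes were -0.75 ± 0.19 for Psme2 (limma adjusted p = 0.00605) and -0.49 ± 0.14 for Psme1 (adjusted p = 0.0119). The Psme2 call was lost without replicate 2 (limma adjusted p = 0.0719), and the Psme1 call without replicate 1 (0.0925) or replicate 2 (0.113). In cadmium and chromium neither gene was called: Psme2 changed by 0.01 and -0.02, and Psme1 by -0.14 and -0.18. In each of these metals, 1 of the 2 genes had an unadjusted limma p under 0.05. In chromium, 1 PA28 gene was called lower without replicate 4 and in replicates 1 and 2 alone. The same count was called lower in cadmium without replicate 2, so a smaller fall outside nickel is not excluded. Of the immunoproteasome subunits, Psmb8 (0.27) and Psmb10 (0.28) rose in cadmium and Psmb10 (0.29) in chromium. The cadmium calls were both lost without replicate 3 and without replicate 4, and the chromium call without replicate 2 and without replicate 3.

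**Figure D2:**
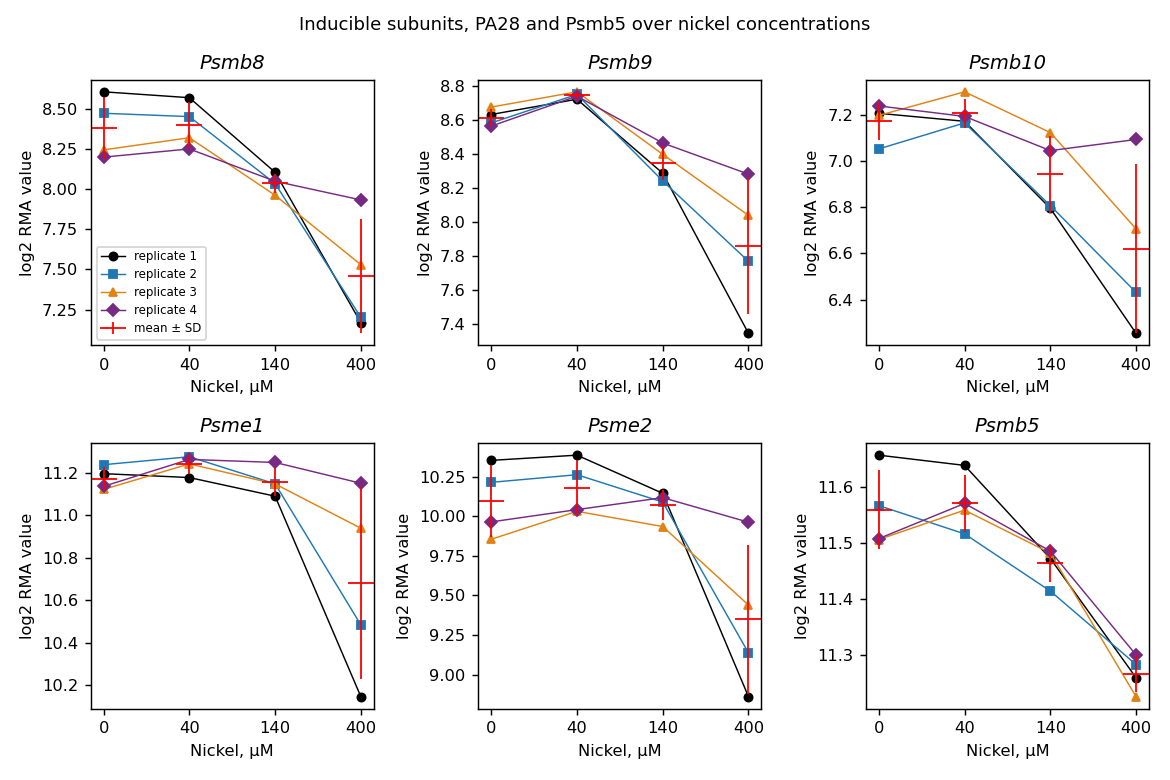
Log2 RMA values (y axis) of the inducible subunits Psmb8, Psmb9 and Psmb10, of PA28 (Psme1 and Psme2) and of the constitutive catalytic subunit Psmb5 over nickel at 0 (controls), 40, 140 and 400 µM (x axis, not to scale). Lines join the 4 replicates and red bars give the mean ± SD: at 400 µM the replicates spread, with replicate 1 lowest for 5 of the 6 genes, while Psmb5 fell to between 11.23 and 11.30 in all 4.

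The promoters of these 5 genes are shown because interferon-stimulated genes commonly carry binding sites for interferon regulatory factors near their start. Sequences are from RefSeq on GRCr8, 200 bases each, 190 before and 10 after the annotated start, 5′ to 3′ on the strand of the gene. Psmb8 lies at chr20:4657022-4657221 (minus strand), Psmb9 at chr20:4668810-4669009 (plus strand), Psmb10 at chr19:50743283-50743482 (minus strand), Psme1 at chr15:33038781-33038980 (plus strand) and Psme2 at chr15:33052742-33052941 (minus strand). Capitals mark, on either strand, GAAA followed after any 2 bases by a second GAAA (an interferon regulatory factor pattern), TGACNNNGC (the core of the antioxidant response element bound by NRF1 and NRF2) and CCAAT (a box bound by NF-Y).
Psmb8: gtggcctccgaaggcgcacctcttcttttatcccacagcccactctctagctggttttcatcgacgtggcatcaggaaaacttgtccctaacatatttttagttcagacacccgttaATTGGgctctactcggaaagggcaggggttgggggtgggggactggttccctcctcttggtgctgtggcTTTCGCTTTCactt
Psmb9: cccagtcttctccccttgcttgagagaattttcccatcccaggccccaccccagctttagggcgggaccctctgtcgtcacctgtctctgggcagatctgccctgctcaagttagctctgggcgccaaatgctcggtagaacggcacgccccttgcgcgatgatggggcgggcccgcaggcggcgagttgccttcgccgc
Psmb10: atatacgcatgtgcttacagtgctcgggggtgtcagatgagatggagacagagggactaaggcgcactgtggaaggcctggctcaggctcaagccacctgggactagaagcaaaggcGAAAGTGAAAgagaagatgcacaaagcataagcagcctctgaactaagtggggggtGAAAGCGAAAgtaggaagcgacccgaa
Psme1: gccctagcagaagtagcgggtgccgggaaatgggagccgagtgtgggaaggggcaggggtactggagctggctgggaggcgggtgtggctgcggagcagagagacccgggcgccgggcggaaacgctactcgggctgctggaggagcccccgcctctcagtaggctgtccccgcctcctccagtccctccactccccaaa
Psme2: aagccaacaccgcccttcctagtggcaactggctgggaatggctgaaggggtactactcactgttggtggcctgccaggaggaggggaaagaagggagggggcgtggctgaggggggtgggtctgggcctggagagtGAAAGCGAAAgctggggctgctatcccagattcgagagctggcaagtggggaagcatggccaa
The interferon pattern began 4 bases before the start of Psmb8, 53 before that of Psme2, and 73 and 17 before that of Psmb10. It had no match in the 300 bases searched for Psmb9 and Psme1, which fell as well. Of 40 proteasome promoters in the table, 7 (17.5%) held it, where 3.9% of 33469 rat promoters of the same length did. The pattern also stood in Psma4, Psmb3, Psmd7 and Psmg4, none of which was called lower in nickel. Of these, Psmb3 and Psmd7 were called higher in nickel. These patterns were chosen after the expression values were seen, so the shares are descriptions and were not tested.

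In nickel, 6 of the 30 standard subunits rose and 2 fell, where 23.4% of all tested probe sets were called higher and 16.7% lower. The number that rose lies near that share, and the number that fell lies below it. Those that rose were Psma3 (0.27), Psma7 (0.22), Psmb3 (0.20), Psmd7 (0.19), Psmd11 (0.51) and Psmd14 (0.43), and those that fell were Psmb5 and the base ATPase Psmc3 (-0.30). Psma3, Psmd11, Psmd14 and Psmb5 kept their calls with any 1 replicate left out. Psmb3 lost its call without replicate 1, 2 or 4, and Psmd7 kept its call in 1 of 4 such fits, Psma7 and Psmc3 in 2. Over the 44 genes nickel called 4 higher and 4 lower without replicate 2, 5 higher and 5 lower without replicate 1. Psmc3 had log2 values of 10.20, 10.28, 10.19 and 10.39 in nickel, all below the controls at 10.62, 10.69, 10.42 and 10.54. Replicates 1 and 2 alone, whose conditions did not depend on the order of titles, called 19 genes in nickel, of which 9 rose and 10 fell. In chromium they called 20, of which 19 rose. The share of all tested probe sets called in replicates 1 and 2 alone was not counted, so these counts have no background beside them.

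Of the 7 assembly chaperones, 6 rose in cadmium, 2 in chromium and 1 in nickel. Over all tested probe sets, 23.8%, 23% and 23.4% were called higher. With 7 genes, the counts in chromium and nickel lie near those shares. Psmd9, a chaperone of the base, had the largest increase of any proteasome gene: 9.60, 9.43, 9.54 and 9.55 in cadmium and 9.36, 9.30, 9.50 and 9.39 in chromium, against 9.06, 8.92, 8.80 and 8.85 in controls. No array of cadmium or chromium overlapped the controls. The change was 0.62 ± 0.06 in cadmium (limma adjusted p = 1.19e-05, 1.54-fold) and 0.48 ± 0.08 in chromium (adjusted p = 0.000245), and in nickel -0.09 (adjusted p = 0.373). A second Psmd9 probe set of lower signal changed by 0.19 in cadmium and 0.22 in chromium and was not called. Psmg3, a chaperone of the core, followed another order: 9.22, 9.22, 8.86 and 9.12 in nickel and 9.18, 9.16, 9.18 and 9.33 in cadmium, against 8.91, 8.78, 8.59 and 8.74 in controls. It rose by 0.46 ± 0.08 in cadmium and 0.35 ± 0.07 in nickel, each in 4 of 4 replicates although replicate 3 of nickel lay among the controls, and changed by -0.04 ± 0.06 in chromium. The cadmium count was also lower in some of these fits, with 2 of 7 chaperones, Psmd9 and Psmg3, called without replicate 3. Without replicate 4, 2 of 7 were called in cadmium. Without replicate 4, chromium raised 3 of 7, and nickel raised 1 and lowered 3. A direct contrast of the metals called 3 of 7 higher in cadmium than in chromium, where 24.3% of tested probe sets were higher.

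The Psmd9 promoter, at chr12:39018255-39018454 (minus strand) of GRCr8, is shown as that of the gene with the largest increase, with capitals as above.
Psmd9: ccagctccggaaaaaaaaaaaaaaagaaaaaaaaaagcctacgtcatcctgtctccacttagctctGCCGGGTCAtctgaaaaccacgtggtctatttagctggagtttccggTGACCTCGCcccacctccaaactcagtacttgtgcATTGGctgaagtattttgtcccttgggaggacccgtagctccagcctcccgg
It held the antioxidant core 124 and 77 bases before the start, and a CCAAT box 42 bases before it. Over the 40 proteasome promoters, 17.5% held the antioxidant core, where 12.1% of all promoters did, and 20 of 40 held a CCAAT box, where 37.5% of all promoters did. A CCAAT box stood in 5 of 6 alpha ring promoters and in 2 of 6 base ATPase promoters, and the antioxidant core in 1 of 6 and 0 of 6.

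Psme4 encodes PA200, a large activator that binds the core without the 19S cap. Its probe set of highest signal averaged 9.35 ± 0.10 in nickel and 9.39 ± 0.11 in cadmium, against 9.11 ± 0.11 in controls (SD, n = 4 each), an increase of 0.24 in nickel and 0.28 in cadmium. The nickel call was lost without replicate 2 and the cadmium call without replicate 1, 3 or 4. In chromium the Psme4 probe sets differed in size: 2 changed by -0.12 and -0.13 without passing the test, and the third fell by 0.84 on the log2 scale (limma adjusted p = 2.32e-05), to 6.93, 6.72, 6.52 and 6.60 in chromium against 7.42, 7.41, 7.68 and 7.63 in controls. Which transcripts each probe set reads was not tested. Psmf1 (PI31, an inhibitor of the core in vitro) rose in cadmium by 0.22 and was not called in chromium or nickel, with changes of 0.04 and 0.05. Its cadmium call held in 1 of 4 fits that left out a replicate.

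Across concentrations, almost all calls were at the highest. At nickel 40 µM and chromium 0.275 µM none of the 44 genes was called by limma, none had an unadjusted p under 0.05, and the background was 0% in either direction. At chromium 1 µM none was called, with 0.0322% of tested probe sets called higher and 0.0193% lower, and at cadmium 0.2 µM none was called, with 0.161% higher and 0.316% lower. In both, 0 of 44 had an unadjusted p under 0.05. At nickel 140 µM none was called in limma, with 4 genes at an unadjusted p under 0.05 and a background of 2.53% higher and 0.754% lower. The inducible subunits were already below their controls there, in 4 of 4 replicates each, with changes of -0.34 for Psmb8, -0.27 for Psmb9 and -0.23 for Psmb10 that did not pass the adjustment. At cadmium 0.55 µM 2 genes rose and none fell, against 8.38% higher and 2.3% lower. Both were assembly chaperones, Psmg3 by 0.36 (limma adjusted p = 0.017) and Psmd9 by 0.30 (adjusted p = 0.0124). There, 42 of the 44 genes lay above 0 with a median of 0.13, where the median over all tested probe sets was 0.04, and 15 had an unadjusted p under 0.05. The median difference over the 44 genes was 0.06, 0.34, 0.15 and 0.02 in replicates 1 to 4, highest in replicate 2, whose array is titled as repeated. With the 8 control arrays kept as separate samples 13 genes were called, without replicate 1 or without replicate 2 only 1 was, and without replicate 3 none.

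**Figure D3:**
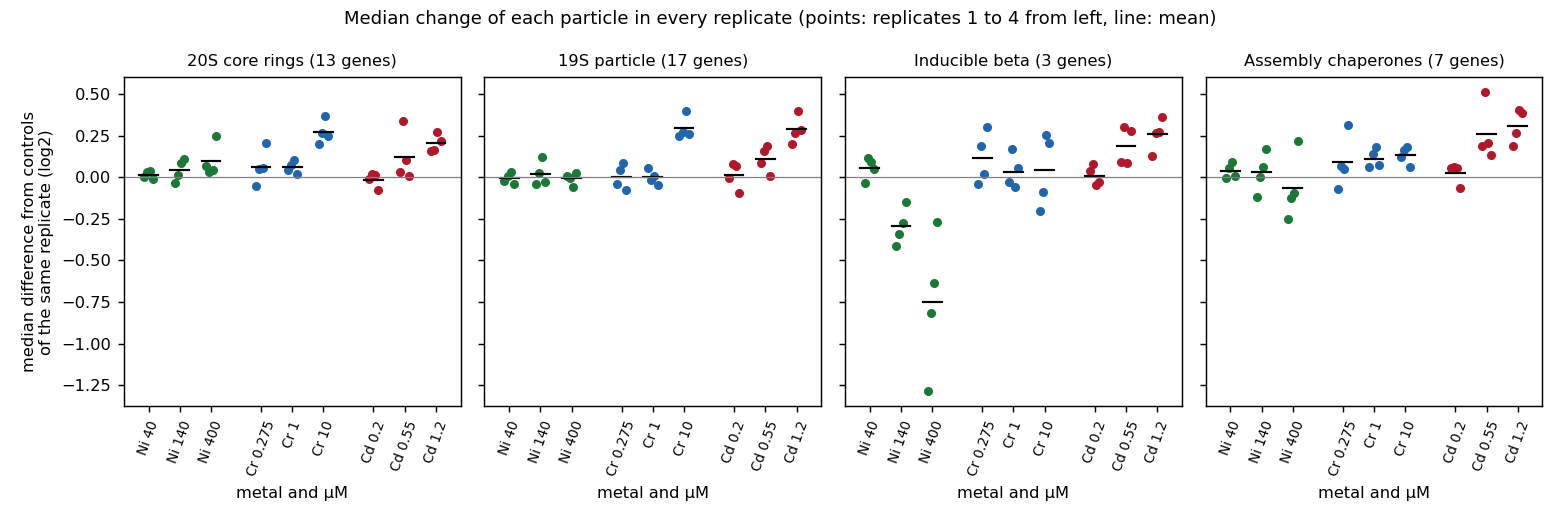
Median log2 difference from the controls of the same replicate (y axis) over the genes of 4 particles, at each concentration of nickel (Ni), chromium (Cr) and cadmium (Cd) in µM (x axis). Points are replicates 1 to 4 from left and lines their means: the 20S and 19S medians stand above 0 in every replicate of chromium 10 µM and cadmium 1.2 µM, and the inducible beta subunits stand below 0 in every replicate of nickel 140 and 400 µM.

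Because the 3 metals share their controls, differences between metals were tested directly, in 1 limma fit over all 10 conditions. The molar concentrations differ between metals and had been set by loss of viability, so the contrasts compare the highest level of each metal and not equal doses. Cadmium at 1.2 µM was higher than nickel at 400 µM for 24 of 44 genes and lower for 1, where 24.8% of tested probe sets were higher and 20.3% lower. The largest differences were Psmb8 (1.19 ± 0.13, limma adjusted p = 5.2e-09), Psmb9 (0.89 ± 0.11), Psmb10 (0.84 ± 0.11), Psme2 (0.76 ± 0.15) and Psmd9 (0.71 ± 0.07). Psma3 was the 1 gene lower in cadmium than in nickel, by 0.25. Nickel at 400 µM was lower than chromium at 10 µM for 25 genes and higher for 2, Psmg3 (0.40) and Psme4 (0.37), where 21.8% of tested probe sets were lower and 23% higher. The 25 included all 6 base ATPases, by between 0.29 and 0.46, and Psmb5 (-0.53 ± 0.06). The contrast of cadmium and chromium called the fewest genes: 7 were higher in cadmium and 3 lower, where 24.3% of tested probe sets were higher and 19.2% lower. Those higher were Psmb7 (0.15), Psmd8 (0.34), Psme4 (0.40), Psmf1 (0.18) and the chaperones Psmd10 (0.26), Psmg3 (0.50) and Psmg4 (0.35), and those lower were Psmb5 (-0.21), Psmc2 (-0.27) and Psmd6 (-0.15). No alpha ring gene was called in that contrast, with differences between -0.14 and -0.04. Without replicate 3, 2 genes were higher in cadmium than in chromium, and without replicate 1 or replicate 4, 4 were. In the contrast with nickel, 3 genes were lower in cadmium without replicate 3.

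**Figure D4:**
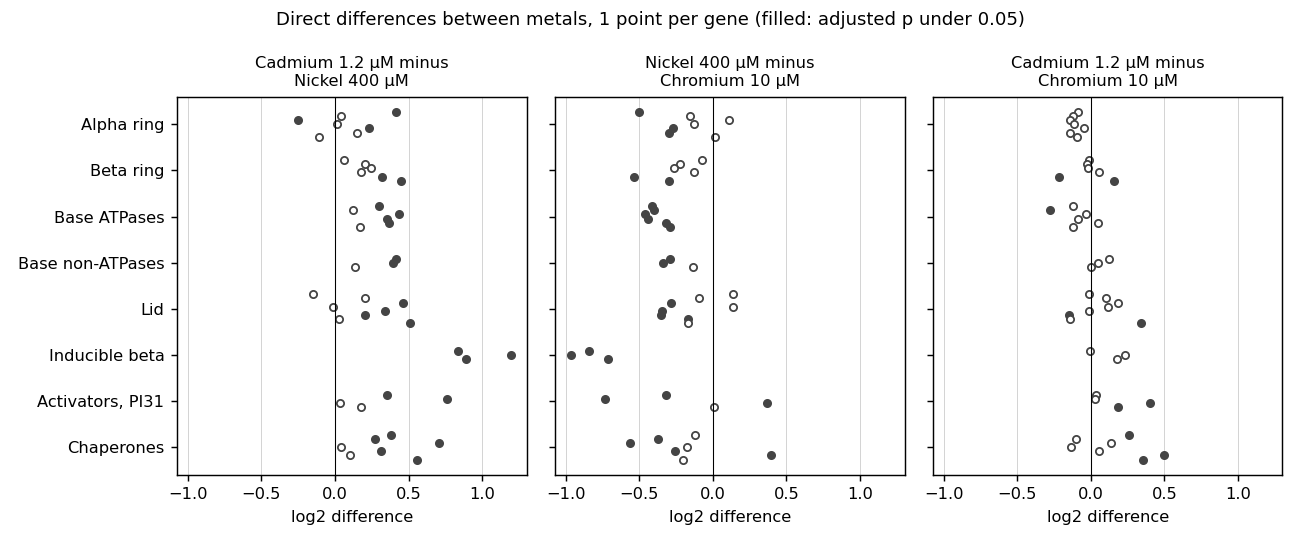
Log2 difference (x axis) between the highest concentrations of 2 metals, with 1 point for each of the 44 proteasome genes by particle (y axis), filled where the adjusted p was under 0.05. The inducible subunits differ most for cadmium minus nickel, from 0.84 to 1.19. For nickel minus chromium they lie between -0.96 and -0.71, with Psme2 among them at -0.73, while cadmium minus chromium is centred near 0.

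Other genes of the ubiquitin-proteasome route came from a list of 39, of which 33 had a probe set of their own and 32 passed the filter. Cadmium at 1.2 µM raised 15 and lowered 2, chromium at 10 µM raised 12 and lowered 4, and nickel at 400 µM raised 11 and lowered 2. Over all tested probe sets, cadmium called 23.8% higher and 14% lower, chromium 23% and 19.5%, and nickel 23.4% and 16.7%. Zfand2a, an arsenite-inducible protein that associates with the proteasome under stress, rose by 2.25 ± 0.16 in cadmium, 1.04 ± 0.09 in chromium and 1.14 ± 0.20 in nickel. Zfand5, another zinc finger protein that binds the 26S particle, rose by 0.41, 0.30 and 0.44. Uchl5, a deubiquitinase on the 19S particle, rose by 0.64 in cadmium and 1.02 in chromium and was not called in nickel. Of the transcription route, Nfe2l1 (NRF1) rose in cadmium (0.26) and was not called in the other metals. Nfe2l2 (NRF2) fell in nickel (-0.47) and cadmium (-0.20) and rose in chromium (0.31). Maff and Mafk, small partners of both factors, rose in each metal, Maff by 1.00 in cadmium, 1.31 in chromium and 1.69 in nickel, while Mafg, another small Maf, was called in none (0.03, 0.05 and 0.04). Ngly1, the deglycosylase that processes NRF1, fell in cadmium (-0.24) and chromium (-0.33) and was not called in nickel (-0.20). Akirin2, of the same route, rose by 0.62 in cadmium, 0.34 in chromium and 0.40 in nickel. Ddi2, also of that route, was called in none, with changes of -0.34, 0.06 and -0.03. Pomp, the maturation protein of the core, rose in cadmium by 0.19 and in no other metal.

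Every one of the 46 genes had a probe set that passed the filter on low values, and 55 of the 60 probe sets did. The 5 that did not were extra probe sets of Psmd11, Psmc4, Psme1 and, for 2 of them, Psmb5, with mean values between 4.91 and 5.88 log2 units. Another 6 probe sets named a Psm gene together with other genes, for Psmb6, Psme3 and Psma3, and gave no value. Psmc3ip rose by 0.39 in cadmium and 0.36 in chromium. Psme3ip1 rose by 0.17 in cadmium, 0.31 in chromium and 0.22 in nickel at the highest concentrations, and by 0.23 in nickel at 140 µM.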

How the data were processed

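Gene expression was measured with an Affymetrix rat whole-genome array on RNA of H4-II-E-C3 cells. The authors deposited log2 expression values, summarised by RMA (background correction, quantile normalization and combination of the probes of a probe set) in Partek, per the labels and the study's methods. No scanner intensities were used here. Gene names came from the platform annotation, in which 20826 probe sets named 1 gene, 436 several and 9780 none. The table held 31099 probe sets, of which 57 array controls were left out.

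Array conditions followed the order of titles given for this work, in which the titles of repeated microarrays come last. Members and gene lists were chosen with earlier results of these data known. Each metal was fitted against controls in limma 3.58.1 (R 4.3.3) with condition and replicate number as factors, leaving 9 residual degrees of freedom. The study's methods fitted dose and batch, where batch stood for dates of experiment and processing. The sample labels do not say whether replicate number matches that batch. A single fit over all conditions (27 degrees of freedom) gave the contrasts between metals. Tests covered the 15521 probe sets in the upper 50% by mean over all arrays, and p-values were adjusted by the Benjamini-Hochberg method. A gene was represented by its probe set of highest mean. Genes named by rule were the catalytic subunits, the 2 genes of each particle with the largest called change at the highest concentrations, those called against the direction of most of their particle, those with probe sets of opposite direction, and those not passing the filter. Others were named after their values were seen. Deviations from condition means correlated between arrays of the same replicate number by at least 0.29 in nickel, but down to 0.0953 in replicate 2 of chromium and -0.199 in replicate 2 of cadmium. On data simulated from nickel at 400 µM, 98% of 2-fold changes and 77% of log2 changes of 0.5 were recovered, and 13 unchanged probe sets were called. The 4 replicates of each condition limit the precision of all values. Promoters came from RefSeq tables on GRCr8, which held 40 of the 44 genes and not Psma7, Psmd6, Psmd12 or Psmd14.

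Alternatives were titles as deposited, replicates 1 and 2 only, no replicate block, separate control arrays, each control array alone, other filters, median centring, quantile normalization, the mean of all probe sets of a gene, 1 fit over all conditions, and leaving out the repeated arrays or each replicate. Values of the replicates side by side were added after the data were seen.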

Additional observations from a re-analysis of the deposited data

Results flagged for a closer look

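Of 193 groups examined, 8 had a replicate far from the other 3. A group held 4 replicates or, for levels of named genes in controls, the 8 control arrays. Distance was judged by the share of the group's whole range taken by the gap to the nearest value. Chance gives such a gap in about 1 in 20 groups. In cadmium at 1.2 µM, Psmg3 stood at 9.33 in replicate 4 and at most 9.18 in the others (gap 0.873 of the range). In nickel at 400 µM, the median difference from controls over the 20S rings was 0.25 in replicate 4 and at most 0.07 in the others (0.832), and over the alpha ring 0.28 against at most 0.09 (0.859). Both come from the same array, whose inducible subunits were also the least lowered. In chromium at 10 µM, the base ATPases had a median difference of 0.42 in 1 replicate and at most 0.28 in the others (0.886). In chromium at 1 µM, the beta ring had 0.22 in 1 replicate and at most 0.07 in the others (0.885). In nickel at 40 µM, the other activators and the inhibitor had 0.08 in 1 replicate and at most 0.01 in the others (0.916). In cadmium at 0.2 µM, 1 replicate was lowest for the assembly chaperones (-0.06, with the others at 0.05 or more, 0.949) and 1 for the base scaffold subunits (-0.15, with the others at 0.04 or more, 0.855). What set these replicates apart was not tested.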

How the results depend on the processing

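No call against controls held with titles as deposited. In that order limma called 0 genes higher and 0 lower in nickel at 400 µM, 0 higher in chromium at 10 µM, and 0 higher in cadmium at 0.55 and at 1.2 µM. The contrasts then gave 1 higher and 0 lower for cadmium against nickel, 0 and 0 for cadmium against chromium, and 0 and 9 for nickel against chromium, and 0 genes passed the threshold of the methods in nickel. The log2 changes of Psmb8 in Cadmium 1.2 µM (-0.05471), Psmc6 in Cadmium 1.2 µM (-0.07979) and Psmd2 in Cadmium 1.2 µM (-0.0059) had the opposite sign in that order. Without the replicate block, cadmium raised 0 genes at 0.55 µM and 19 at 1.2 µM, and 3 genes were higher in cadmium than in chromium. Psma1 was then not called in chromium (limma adjusted p = 0.0662) or cadmium (0.101). With 8 separate control arrays, 13 genes rose in cadmium at 0.55 µM, 1 in nickel at 140 µM, and 1 fell in chromium at 10 µM and 1 in cadmium at 1.2 µM. A single gene fell in nickel at 140 µM (1) and in chromium at 10 µM (1) with replicates 1 and 2 only. With the stricter filter on low values, 1 rose in nickel at 140 µM and 1 fell in cadmium at 1.2 µM. With quantile normalization, or without the repeated arrays, 1 fell in chromium at 10 µM and 1 in cadmium at 1.2 µM. Quantile normalization also left 20 genes higher in cadmium at 1.2 µM, against 30 in the main fit. With the mean of all probe sets, 1 fell in chromium at 10 µM and 1 rose in cadmium at 0.55 µM. The share of all tested probe sets called in each of these alternatives was not counted, so their counts have no background beside them. Fewer or more calls may therefore not be particular to proteasome genes. The causes were not tested.

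Leaving out 1 replicate in turn gave 4 to 8 genes higher and 4 to 10 lower in nickel at 400 µM, 13 to 31 higher and 0 to 1 lower in chromium at 10 µM, 0 to 2 higher in cadmium at 0.55 µM, and 11 to 33 higher and 0 to 1 lower in cadmium at 1.2 µM. The contrasts ranged over 1 to 3 lower in cadmium than in nickel and 2 to 6 higher in cadmium than in chromium. Over 36 calls of named genes, the alternatives kept 507 values on the same side of the threshold, lost 88, of which 33 under titles as deposited, and reversed 3. On data simulated from nickel at 400 µM, 77% of changes of 0.5 log2 units were recovered, and smaller changes were not simulated.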
